A study of Mus musculus with 37 samples.

Results

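Expression of 10 genes tied to cell quiescence was followed in mouse splenocytes kept with macrophages or with macrophage medium, and in naive splenocytes. They were the Krüppel-like factors KLF2 (ENSG00000127528.6), KLF3 (ENSG00000109787), KLF4 (ENSG00000136826), KLF6 (ENSG00000067082), KLF10 (ENSG00000155090) and KLF13 (ENSG00000169926), the antiproliferative genes BTG1 (ENSG00000133639), BTG2 (ENSG00000159388) and TOB1 (ENSG00000141232), and TXNIP (ENSG00000265972). They were taken by their Ensembl ID before the dot from a fixed list, and were 10 of the 60708 IDs in the table. The splenocytes came from wild-type FVB mice, and the exposed ones were cultured for 48 h with cells of the mouse macrophage line RAW264.7 without a wash (called cells below), with RAW264.7 cells after a media wash (washed), or with the medium of such cells (medium). The RAW264.7 cells had earlier spent 72 h at 21% oxygen (normoxia) or 1% oxygen (hypoxia), with SPP1 (osteopontin, a secreted ligand of integrins and CD44) at 1 µg/mL or without it, so that oxygen and SPP1 were set in the RAW264.7 cultures before the splenocytes were added. Brefeldin A, an inhibitor of protein secretion, was added before collection, in a protocol that the labels give alike for every sample. Crossing mode, oxygen and SPP1 gave 12 exposed groups, and splenocytes labelled naive formed the 13th. Nothing in the labels says whether or for how long the naive splenocytes were cultured, so in each comparison with naive the exposure and the time in culture cannot be told apart. Of the 13 groups, 11 held 3 libraries, whereas naive and medium normoxia without SPP1 held 2 each, for 37 libraries in all. The labels tied no library to an animal, and a shared replicate number was not said to mean a shared spleen, so p-values measure the spread between these libraries, which may be technical.

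Krüppel-like factors are zinc finger proteins that bind GC-rich and CACCC promoter elements. KLF2 and KLF4 are known to hold lymphocytes and other blood cells out of the cell cycle, and KLF2 also maintains the homing receptors of resting T cells. BTG1, BTG2 and TOB1 belong to a single family of adaptor proteins that bring the CCR4-NOT deadenylase to mRNAs and so shorten their poly(A) tails. BTG1 and BTG2 help keep T cells quiescent by lowering mRNA abundance, and TOB1 is high in unstimulated T cells. TXNIP binds thioredoxin and limits glucose uptake, and its mRNA usually falls when lymphocytes start to grow.

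The libraries were 3′ end libraries made from mouse RNA and aligned against the human genome, so each value is the number of mouse reads that matched the human gene, and levels of different genes cannot be compared. Total counts ran from 631574 to 1337314 per library (median 1063211), and levels are given in CPM, a gene's counts relative to the TMM-scaled library total. A gene was taken as poorly captured when its mean over the 37 libraries was under 10 counts, and 4 of the 10 members were. The filter on low counts was passed by 7, KLF4 of the poorly captured genes among them. The 6 well-captured members were KLF3, KLF6, KLF13, BTG1, BTG2 and TOB1, with means of 63.5, 30.2, 73.2, 7273, 181 and 77.2 counts. Because the table pairs no names with its IDs, neither cell type markers nor further quiescence genes could be looked up, and the part that splenocyte composition or leftover RAW264.7 cells had in any result was not tested. In bulk RNA, fewer cells of a type and less RNA per cell cannot be told apart.

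Several libraries stood apart from the rest. In 5 of the 24 co-culture libraries ENSG00000263934 reached 440 to 962 CPM, against at most 83.4 CPM in any other library. These were cells hypoxia without SPP1 replicate 2, washed normoxia with SPP1 replicates 1 and 2, washed hypoxia without SPP1 replicate 2 and washed hypoxia with SPP1 replicate 1, and 4 of them had the lowest scores on the second principal component (-54.4 to -31.8). Among the 11 medium libraries, medium hypoxia without SPP1 replicate 1 and medium normoxia without SPP1 replicate 3 lay at -11.6 and -10.7 on the first component, apart from the other 9 at -57.5 to -41.5. In the 5, ENSG00000080824 was at 12170 to 53820 CPM and ENSG00000210082 at 671 to 7456 CPM, against at most 8989 and 543 CPM in the other 19 co-culture libraries. Many of the differences that these libraries moved are given with and without them.

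The promoters of the 3 antiproliferative genes are shown first, because these genes differed in their calls against naive. TOB1 and BTG2 fell in every mode, while their relative BTG1 was called in none in the main fit. That fit used edgeR with all libraries, the filter on low counts, TMM scaling and no replicate block. From naive to washed, BTG1 lay near the threshold and passed in several other fits. The 250 bases before the start of the mouse gene were taken from RefSeq (GRCm38.p6), in which 9 of the 10 members had an entry and Klf10 had none. Each sequence reads 5′ to 3′ on the strand of its gene, with motif matches on either strand in capitals. The motifs searched on both strands were TGACGTCA and its shorter form TGACG (cAMP response elements, the shorter overlapping the longer), TGTTTAC (FOXO), GAANNTTC (heat shock element), CACGTG (E-box), CCAAT and TATAAA.

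Btg1, chr10:96616751-96617000, plus strand: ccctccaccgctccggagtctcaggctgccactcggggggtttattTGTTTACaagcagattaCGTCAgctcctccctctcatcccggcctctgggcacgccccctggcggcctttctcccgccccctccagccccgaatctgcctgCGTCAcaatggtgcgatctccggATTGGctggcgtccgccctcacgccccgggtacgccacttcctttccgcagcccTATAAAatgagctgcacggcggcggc
Btg2, chr1:134079156-134079405, minus strand: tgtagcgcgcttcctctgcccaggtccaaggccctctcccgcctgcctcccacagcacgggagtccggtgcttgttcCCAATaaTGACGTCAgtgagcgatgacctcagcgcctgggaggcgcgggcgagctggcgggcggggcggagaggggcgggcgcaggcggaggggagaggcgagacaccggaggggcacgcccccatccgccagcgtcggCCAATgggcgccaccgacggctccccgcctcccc
Tob1, chr11:94211204-94211453, plus strand: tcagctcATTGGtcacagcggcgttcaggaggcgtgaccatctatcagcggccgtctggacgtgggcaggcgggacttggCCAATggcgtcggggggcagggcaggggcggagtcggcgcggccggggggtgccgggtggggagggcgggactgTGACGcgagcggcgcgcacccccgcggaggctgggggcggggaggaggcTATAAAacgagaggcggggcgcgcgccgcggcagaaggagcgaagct

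The Btg2 promoter held the full TGACGTCA, starting 166 bases before the gene, a motif found in 1.55% of the 32851 mouse promoters of the same table. The shorter TGACG was in 6 of the 9 member promoters (those of Klf2, Klf4, Klf13, Btg1, Btg2 and Tob1), against 17.8% of all promoters. The FOXO letters TGTTTAC were in the Btg1 and Txnip promoters and in 3.17% of all. TATAAA lay 26 bases before Btg1 and 47 bases before Tob1, and was present in 12.4% of all promoters. CCAAT was in 6 of the 9 and in 33.8% of all, and CACGTG was in the Klf4 and Klf6 promoters and in 6.02% of all. GAANNTTC, present in 6.69% of all promoters, was in none of the 9 windows. The shares over all promoters were not matched for base composition, and its part in these counts was not tested. G and C made up 65.2% of the Btg1 window, 73.2% of Btg2 and 73.6% of Tob1. These matches describe the letters of the windows, and binding was not measured.

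TOB1 had the largest fold change from naive of the 6 members in each mode. It stood at 403 and 517 CPM in the 2 naive libraries, and at 35.8 to 107 CPM in medium (median 61.1), 32.8 to 76.2 CPM in cells (median 50.9) and 9.25 to 70.4 CPM in washed (median 44.5). Both naive libraries were thus above all 35 exposed ones. By edgeR's quasi-likelihood test, adjusted over all 5193 IDs tested, TOB1 fell 7.27-fold from naive to medium (log2 fold change -2.86, SE 0.37, adjusted p = 3.32e-07), 8.61-fold to cells (-3.11, SE 0.36, adjusted p = 3.63e-08) and 11.7-fold to washed (-3.55, SE 0.35, adjusted p = 1.81e-09). In the order of the 13 group means, naive came first at 460 ± 80.6 CPM (SD, n = 2), medium hypoxia without SPP1 second at 81.1 ± 26.4 CPM (SD, n = 3) and washed normoxia with SPP1 last at 29.3 ± 31.3 CPM (SD, n = 3). From the second place down, the libraries of each group overlapped those of the next group in the order.

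BTG2, a family member that is also a known target of p53, showed the same order of modes with a smaller range. Its naive libraries had 398 and 641 CPM, and the exposed ones 130 to 352 CPM in medium (median 190), 37.5 to 192 CPM in cells (median 163) and 17.7 to 154 CPM in washed (median 97.9). No exposed library reached the lower naive one. The 4 medium groups filled places 2 to 5 among the group means (162 to 255 CPM), the 4 cells groups places 6 to 9 (137 to 160 CPM) and the 4 washed groups the last 4 places (51.4 to 103 CPM), although the libraries of neighbouring groups overlapped. BTG2 fell from naive 2.65-fold to medium (log2 fold change -1.41, SE 0.40, adjusted p = 0.00741), 3.44-fold to cells (-1.78, SE 0.39, adjusted p = 0.000663) and 5.94-fold to washed (-2.57, SE 0.38, adjusted p = 2.11e-06).

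BTG1 was at 2826 CPM or more in every library and did not pass the test against naive in the main fit. The 2 naive libraries had 10260 and 8465 CPM, which were 1.03% to 1.09% of their counts, and the exposed libraries had 3173 to 13430 CPM in medium (median 6445), 2918 to 9325 CPM in cells (median 7429) and 2826 to 8686 CPM in washed (median 6341). The lower naive value lay inside the range of all 3 modes, and the higher one was exceeded only by the medium library at 13430 CPM. The log2 fold change from naive was -0.57 to medium (95% interval -1.18 to 0.05, adjusted p = 0.153), -0.43 to cells (-1.05 to 0.18, adjusted p = 0.308) and -0.73 to washed (-1.33 to -0.13, adjusted p = 0.0534). The washed comparison lay near the threshold: it passed with RLE scaling (-0.85, adjusted p = 0.0195), with DESeq2 (adjusted p = 0.0304), without the filter on low counts (-0.58, adjusted p = 0.0382), and on leaving out any 1 of 5 washed libraries (lowest adjusted p = 0.0129), whereas without the 5 libraries that stood apart it was -0.38 (SE 0.22, adjusted p = 0.177). The medium comparison passed with only the groups compared (-0.67, adjusted p = 0.0377). The log2 fold changes of TOB1 in the same comparisons lay outside the BTG1 intervals.

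**Figure D1:**
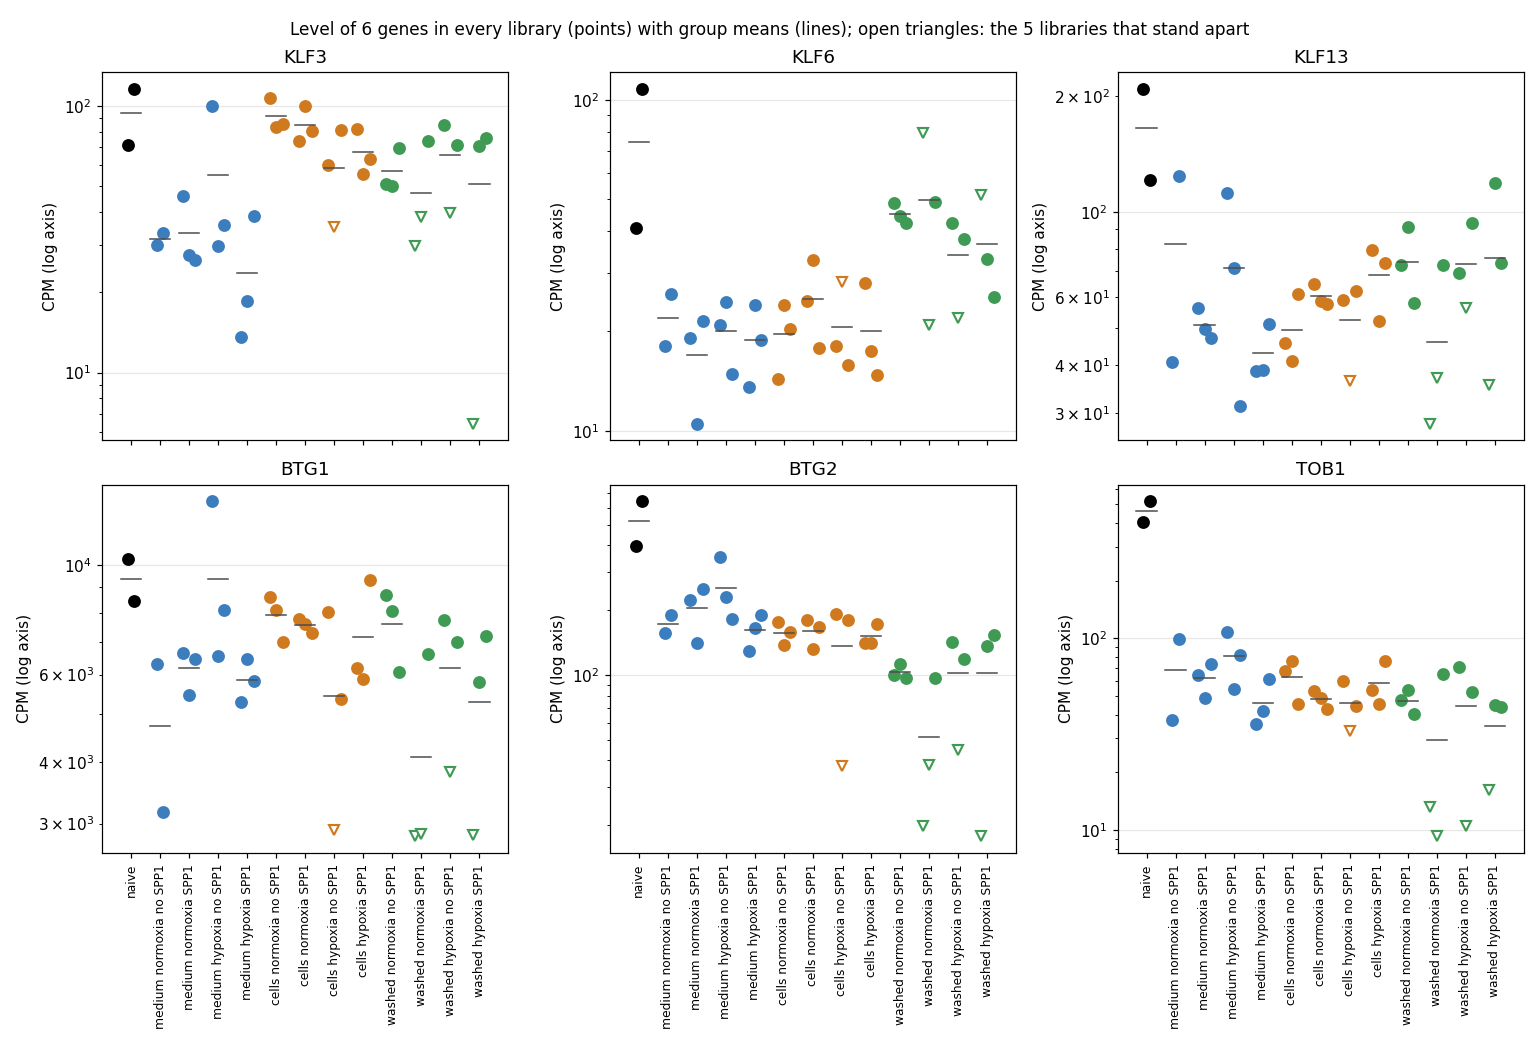
Level of the 6 well-captured genes (CPM, log axis) in every library, by group, with group means as lines and open triangles for the 5 co-culture libraries with ENSG00000263934 above 100 CPM. Naive splenocytes (black) were highest for TOB1 (403 and 517 CPM) and BTG2 (398 and 641 CPM), and for KLF6 the washed libraries (green, median 42.5 CPM) lay mostly above medium (blue, 19.02 CPM) and cells (orange, 19.2 CPM).

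Among the Krüppel-like factors, KLF13, a factor known to drive late chemokine expression in activated T cells, fell against naive in all 3 modes. It had 209 and 121 CPM in naive, 31.3 to 124 CPM in medium (median 49.6), 36.3 to 79.7 CPM in cells (median 58.8) and 28.2 to 118 CPM in washed (median 71.0). Every cells and washed library was below both naive ones, and 1 medium library, medium normoxia without SPP1 replicate 3, was above the lower naive value. The log2 fold change was -1.46 in medium (SE 0.34, adjusted p = 0.00129), -1.53 in cells (SE 0.335, adjusted p = 0.000669) and -1.32 in washed (SE 0.34, adjusted p = 0.00265), and no difference between the modes was called (log2 differences of -0.07 to 0.21, adjusted p of 0.567 or more).

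KLF6, a factor induced early in many cells by stress and inflammatory signals, was higher in washed cultures than in medium or in unwashed co-cultures, with overlapping libraries. Its promoter is shown because the gene was the 1 Krüppel-like factor called between washed and unwashed co-cultures; it held 4 CCAAT boxes and a CACGTG.

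Klf6, chr13:5861239-5861488, plus strand: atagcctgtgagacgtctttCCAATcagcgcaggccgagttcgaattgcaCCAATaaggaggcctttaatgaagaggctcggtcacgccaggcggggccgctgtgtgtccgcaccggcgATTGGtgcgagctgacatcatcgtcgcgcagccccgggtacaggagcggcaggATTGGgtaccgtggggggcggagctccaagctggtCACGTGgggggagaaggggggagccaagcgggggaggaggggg

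KLF6 had 41.0 and 108 CPM in the 2 naive libraries, which differed more from each other, as a ratio, than for any other well-captured member. It ran from 10.5 to 25.8 CPM in medium (median 19.02), from 14.3 to 32.7 CPM in cells (median 19.2) and from 20.8 to 79.5 CPM in washed (median 42.5). The 4 washed groups took places 2 to 5 among the 13 group means, after naive, with 34.1 to 49.8 CPM, and the 8 medium and cells groups followed with 17.0 to 25.1 CPM. KLF6 fell from naive to medium (log2 fold change -1.93, SE 0.35, adjusted p = 6.14e-05) and to cells (-1.80, SE 0.34, adjusted p = 0.000144), with no overlap of libraries in either comparison. Between naive and washed the log2 difference was -0.86 (SE 0.36, adjusted p = 0.0583), which passed with RLE scaling (-0.99, adjusted p = 0.0293) and with DESeq2 (adjusted p = 0.0316), and was 0.006 without naive replicate 2.

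KLF3, a repressor that recruits CtBP corepressors, followed another order again. It had 71.3 and 116 CPM in naive, 13.5 to 100 CPM in medium (median 30.1), 35.1 to 107 CPM in cells (median 80.8) and 6.44 to 84.8 CPM in washed (median 60.1). Except for 1 library at 100 CPM, all medium libraries were at 46.0 CPM or less, and 3 of the 4 medium groups had the lowest means of the 13. KLF3 fell from naive to medium (log2 fold change -1.43, SE 0.42, adjusted p = 0.00794), whereas it differed from naive by -0.32 in cells (95% interval -1.20 to 0.55, adjusted p = 0.615) and by -0.75 in washed (-1.61 to 0.11, adjusted p = 0.171). Without the 5 libraries that stood apart the washed difference was -0.36 (adjusted p = 0.396).

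Counted over the 6 well-captured members, 5 fell and 0 rose from naive to medium, where 32.4% of all IDs tested were called in either direction and 15.3% were called lower. From naive to cells 4 fell and 0 rose (27.3% of all IDs called, 13.4% lower), and from naive to washed 3 fell and 0 rose (34.5% called, 17.1% lower). All 6 log2 fold changes were below 0 in each of the 3 comparisons, with medians of -1.45, -1.66 and -1.09 against 0.12, 0.04 and 0.04 for all IDs. With RLE in place of TMM scaling the median of all IDs in the cells and washed comparisons moved from 0.04 to -0.07, and the members stayed below 0. The 3 comparisons share the 2 naive libraries, so they are not independent of each other. TOB1 kept its call in all 3 comparisons without either naive library, and BTG2 kept it from naive to washed. Without naive replicate 2, the KLF3, KLF6 and BTG2 calls in medium and the KLF6 and BTG2 calls in cells were lost (adjusted p of 0.095 to 0.233), with log2 fold changes of -0.95 to -1.40. Without naive replicate 1 the 3 KLF13 calls were lost (log2 fold changes of -0.77 to -0.995, adjusted p of 0.128 to 0.238). The lone naive library was then assumed to vary like the other groups. Without the 2 medium libraries that stood apart, the same 5 genes were called lower in medium than in naive.

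**Figure D2:**
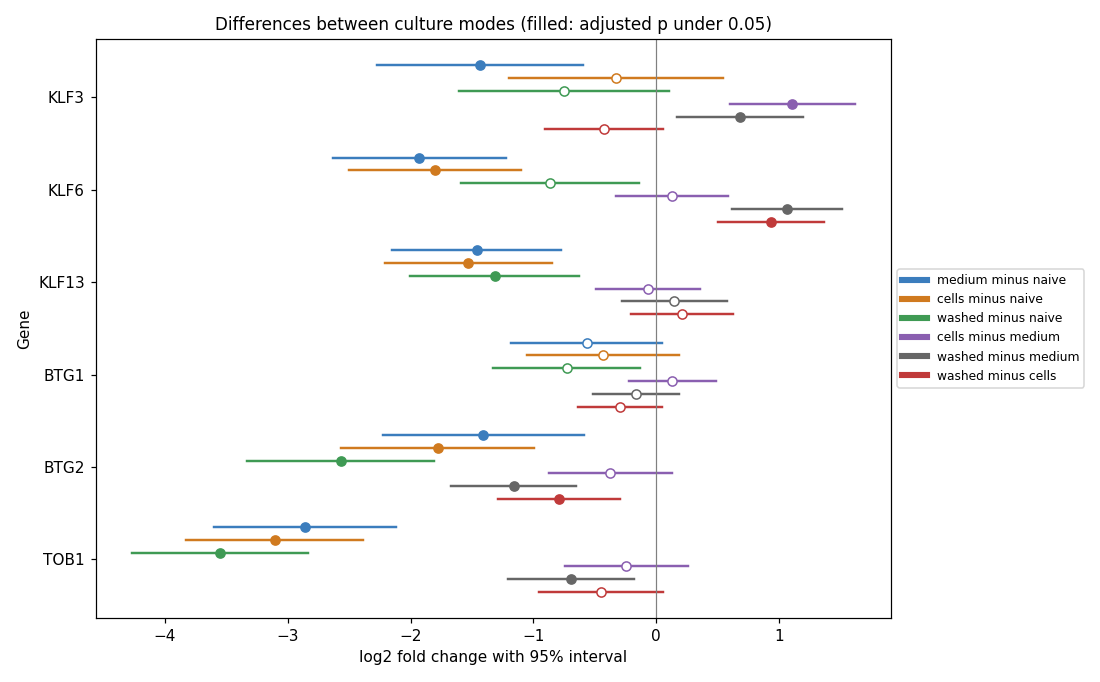
Log2 fold changes with 95% intervals for the 6 genes in the 6 comparisons between culture modes and naive, filled where the adjusted p was under 0.05. TOB1 differed most from naive (-2.86 to -3.55), KLF3 was higher in cells than in medium (1.11), and KLF6 was higher in washed than in medium (1.07) and in cells (0.94).

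The modes were then compared with each other. Cells against medium differed in the presence of the RAW264.7 cells, whereas washed against medium also differed in the media wash. In the latter comparison the presence of the cells and the wash cannot be told apart. KLF3 was 2.16-fold higher in cells than in medium (log2 fold change 1.11, SE 0.25, adjusted p = 0.000444), and it was the 1 member called in that comparison, in which 48.7% of all IDs were called. Between washed and medium 58.7% of all IDs were called, and 4 members were. KLF6 rose 2.09-fold from medium to washed (1.07, SE 0.22, adjusted p = 0.000103) and KLF3 1.61-fold (0.68, SE 0.25, adjusted p = 0.0202), whereas BTG2 fell (-1.16, SE 0.25, adjusted p = 0.000167) and TOB1 fell (-0.69, SE 0.25, adjusted p = 0.0187). The libraries of the modes overlapped for every member. The TOB1 call was lost without medium normoxia without SPP1 replicate 3 (-0.445, adjusted p = 0.153) and without both medium libraries that stood apart (-0.43, adjusted p = 0.189), and the KLF3 call without medium normoxia without SPP1 replicate 2 (0.64, adjusted p = 0.0585). Both comparisons share the medium libraries.

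Fewer differences were found between washed and cells, with 7.24% of all IDs called. Without the 5 libraries that stood apart, the share was 3.35% of the 5881 IDs then tested. KLF6 was higher in washed (log2 fold change 0.94, SE 0.21, adjusted p = 0.00749) and BTG2 lower (-0.79, SE 0.25, adjusted p = 0.0415). The other 4 members were not called, with 95% intervals that together reached from -0.95 to 0.63. Without the 5 libraries TOB1 moved from -0.45 to -0.03 and BTG1 from -0.30 to -0.06. KLF3 moved from -0.43 to -0.15 and KLF13 from 0.21 to 0.44, and none of the 4 was called. The KLF6 difference held without the 5 libraries (0.99, SE 0.21, adjusted p = 0.0071), in which the 8 remaining washed libraries had 25.3 to 49.0 CPM and the 11 remaining cells libraries 14.3 to 32.7 CPM. In these same libraries ENSG00000080824 was also higher in washed (mean 5507 CPM) than in cells (mean 2232 CPM), and its part in the result was not tested. The BTG2 difference shrank to -0.48 without them (adjusted p = 0.0639), with 96.3 to 154 CPM in washed and 132 to 192 CPM in cells. Leaving out any 1 of 16 of the 24 co-culture libraries was also enough to lose that call, with adjusted p up to 0.0905.

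The 5 libraries bore on most of the members. For KLF3, BTG1, BTG2 and TOB1 they were the 5 lowest of the 24 co-culture libraries, below each of the other 19, and for KLF13 4 of them were among the 5 lowest. The share of all IDs that separated in this way was not computed, so the pattern is not shown to be particular to these genes. Relative to the median of the 19 other co-culture libraries, they had 12.5% to 31.8% for BTG2, 17.7% to 62.6% for TOB1, 38.8% to 52.4% for BTG1, 8.69% to 53.5% for KLF3 and 43.5% to 86.9% for KLF13. KLF6 differed from this pattern: its 5 values were 82.2% to 314% of that median, and the 2 highest, 79.5 CPM in washed normoxia with SPP1 replicate 1 and 51.5 CPM in washed hypoxia with SPP1 replicate 1, were above all other exposed libraries. These libraries were recognised by ENSG00000263934 and not assigned by a label, so no test was made on the contrast. Of the 5, 4 were washed libraries and 1 was a cells library. Without them TOB1 was no longer called between washed and medium (-0.24, SE 0.18, adjusted p = 0.283), while KLF3 (1.00, SE 0.21), KLF6 (1.03, SE 0.21) and BTG2 (-0.76, SE 0.15) kept their calls (adjusted p of 0.000118, 8.76e-05 and 6.33e-05). The falls from naive also remained for TOB1 in cells (-3.01) and washed (-3.04), for BTG2 (-1.62 and -2.09), and for KLF13 (-1.44 and -1.001), and KLF6 then passed in washed too (-0.82, adjusted p = 0.0376).

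**Figure D3:**
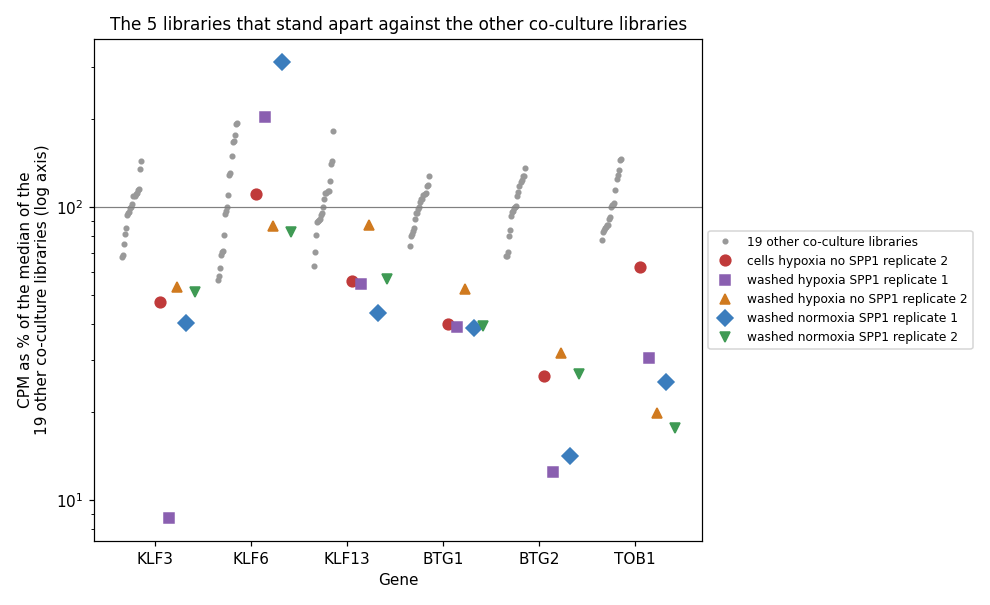
Level of the 6 genes in the 5 co-culture libraries that stood apart (coloured symbols) and in the 19 others (grey points), as a percentage of the median of the 19 others, on a log axis. For BTG2 the 5 were at 12.5% to 31.8% and for BTG1 at 38.8% to 52.4%, whereas for KLF6 they ran from 82.2% to 314%.

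Oxygen in the RAW264.7 culture left the members without a call. Hypoxia against normoxia gave 0 of the 6 in medium (0.077% of all IDs called), 0 in cells (3.62%) and 0 in washed (0.0385%). DESeq2 also called 0 of them, as did edgeR in each mode at an unadjusted p under 0.05. Over all 5193 IDs tested, edgeR gave 382, 928 and 426 at that threshold in medium, cells and washed. Log2 differences ran from -0.49 for KLF3 in cells (95% interval -1.16 to 0.19) to 0.48 for BTG2 in washed (-0.23 to 1.196). KLF3 in cells had 74.1 to 107 CPM after normoxia and 35.1 to 82.1 CPM after hypoxia, and without the 5 libraries its difference was -0.34 (adjusted p = 0.507). BTG1 differed by 0.45 in medium (-0.06 to 0.97) and by -0.31 in cells (-0.79 to 0.17). The medium value included the library at 13430 CPM and was 0.10 (SE 0.29) without the 2 medium libraries that stood apart, and the cells value was -0.14 (SE 0.17) without the 5 co-culture libraries. The difference of those effects was -0.76 (95% interval -1.47 to -0.06), which was not called by edgeR (adjusted p = 0.517). The hypoxia effects differed between cells and medium for 0.481% of all IDs, between washed and cells for 0.173% and between washed and medium for 0%, and no member was among them.

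Added SPP1 likewise gave 0 called members in medium (0.25% of all IDs called), 0 in cells (0%) and 0 in washed (0.0193%), and DESeq2 called 0 in each. At an unadjusted p under 0.05 edgeR gave 1 member in medium, 0 in cells and 1 in washed. Over all 5193 IDs tested, it gave 478, 87 and 527 in these modes. In medium all 6 members had log2 differences below 0 (median -0.35, against -0.02 for all IDs), the furthest being KLF13 at -0.71 (95% interval -1.33 to -0.10, edgeR adjusted p = 0.468). The KLF13 levels were 38.7 to 56.3 CPM with SPP1 and 31.3 to 124 CPM without, and the 2 medium libraries that stood apart, at 124 and 112 CPM, were both without SPP1. Without these 2 libraries the KLF13 difference was 0.05 (SE 0.34), and the other 5 ran from -0.16 to 0.10. In washed, BTG1 differed by -0.56 (-1.04 to -0.08, edgeR adjusted p = 0.408), with 2826 to 7184 CPM with SPP1 and 3817 to 8686 CPM without. Of the 5 libraries that stood apart, 3 were washed libraries with SPP1 and 1 was a washed library without it, and without the 5 the BTG1 difference was -0.17 (SE 0.22). In cells the 6 differences ran from -0.01 to 0.34, with intervals that together reached from -0.71 to 0.92. The SPP1 effects differed between modes for 0% of all IDs in each of the 3 pairs of modes. For single members, the KLF13 effect was 1.05 higher in cells than in medium (edgeR adjusted p = 0.86) and the BTG1 effect in washed differed from that in cells by -0.72 (adjusted p = 0.657). Without the 5 co-culture libraries the BTG1 effects were -0.17 in washed and 0.02 in cells.

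**Figure D4:**
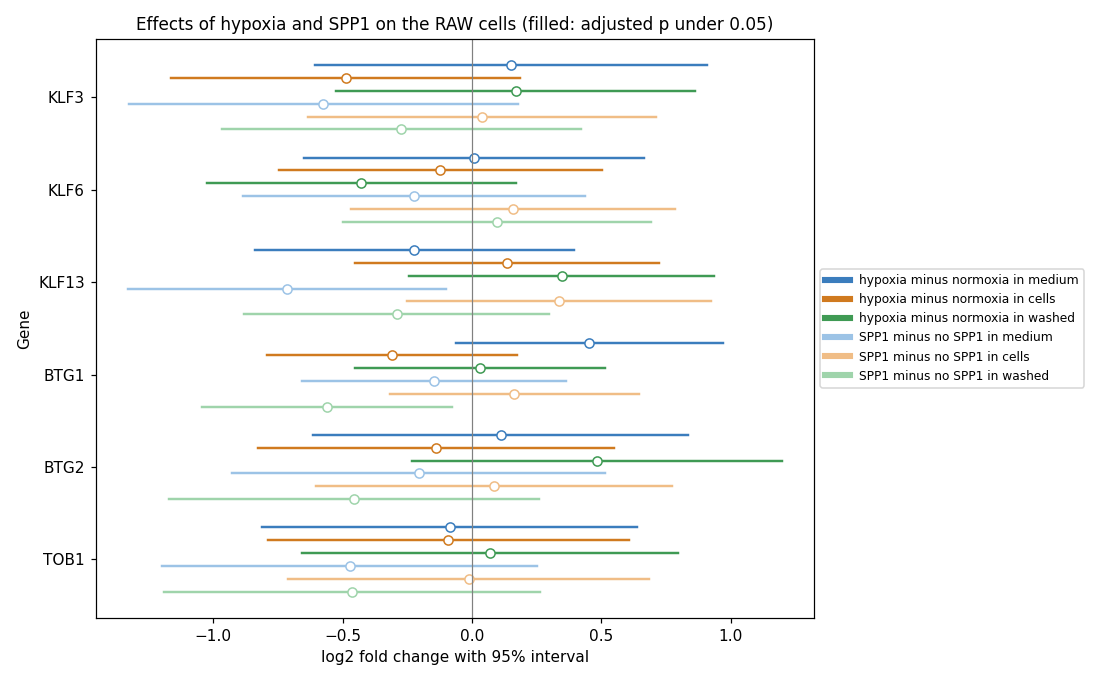
Log2 differences with 95% intervals for hypoxia against normoxia (dark) and SPP1 against no SPP1 (light) in the RAW264.7 culture, for each mode and gene. All 36 points are open because no adjusted p was under 0.05; the 2 intervals that lie wholly below 0 are KLF13 with SPP1 in medium and BTG1 with SPP1 in washed.

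The 4 poorly captured genes are given as counts only. KLF2, a central quiescence factor of T cells, had 0 to 3 counts in any library, with 0 and 3 in naive and 26 in all 37 libraries. KLF10, a factor induced by TGF-β, had 0 counts in both naive libraries and 0 to 3 elsewhere. KLF4 passed the filter on low counts, with 0 and 3 counts in naive, 0 to 14 in medium, 0 to 12 in cells and 1 to 11 in washed. TXNIP had 3 and 4 counts in naive and was found in all 12 cells libraries (1 to 7 counts), in 10 of the 12 washed libraries (0 to 13) and in 4 of the 11 medium libraries (0 to 7), for sums of 48, 56 and 16 counts. A count of 0 allows up to 3 counts, so at this depth no change of these 4 genes was judged. Mouse reads were matched to human genes, so a low count does not show that a gene was low in the splenocytes. KLF4 had at least 1 count in 34 of the 37 libraries and TXNIP in 28.

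Across the 13 group means of log2(CPM + 1), the members did not all move together. BTG2 and TOB1 were the most alike (Pearson r = 0.913, and 0.957 over the 12 exposed groups), followed by KLF13 and TOB1 (0.79) and BTG1 and BTG2 (0.738). Over the 12 exposed groups these were 0.245 and 0.665. KLF3 was most like BTG1 (0.577, and 0.49 over the 12) and KLF6 most like KLF13 (0.635, and 0.26 over the 12). KLF6 and BTG2 were the least alike (-0.084), and over the 12 exposed groups their r was -0.818. Without the 5 libraries the 13-group values were 0.82 for BTG2 and TOB1 and 0.058 for KLF6 and BTG2. They were 0.734 for KLF13 and TOB1 and 0.382 for BTG1 and BTG2. KLF3 and BTG2 were then the least alike (0.036). The points share their libraries and their scaling, and all of these correlations are descriptions.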

How the data were processed

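RNA was sequenced from 37 splenocyte libraries with a QuantSeq 3′ kit. Per the labels, the authors trimmed reads with bbduk, used STAR 2.7.10b to align to GRCh38, and obtained counts by featureCounts (Rsubread 2.0.3). They deposited raw counts per human Ensembl ID, although the samples are mouse, so reads whose 3′ ends differ between species are undercounted and reads can fall on a related gene. The kit added molecular identifiers, but their use in counting and the annotation release are not given in the sources used here, so intervals cover the spread between libraries and a count may include PCR copies.

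Counts were analysed with edgeR 4.0.16 in R 4.3.3. IDs were kept by filterByExpr (minimum count 10, by group), which left 5193 of 22657 IDs with a count (97.8% to 99.4% of the reads counted per library). After TMM scaling, all libraries entered a single quasi-likelihood model of 13 group means, and p-values were Benjamini-Hochberg adjusted over all 5193 IDs, with a call at an adjusted p under 0.05. Intervals are 95% intervals from the t distribution. Oxygen and SPP1 effects were averaged over the other factor. CPM values used TMM-scaled totals. The pipeline was tested on simulated data in which no library was made to stand apart. How it handles such libraries was therefore not tested. All 10 members were named, whatever their test showed; those with a mean under 10 counts were given as counts only. The members and lists were chosen with earlier results of these data known. Planned lists of further quiescence genes and of cell type markers were not run, since the IDs carry no names here. Alternatives were RLE scaling, no filter, DESeq2 1.42.0, the replicate number as a block, only the groups compared, and fits without single libraries or without those that stood apart. In 35 pairs of replicates, counts differed by more than sampling noise (chi-square per degree of freedom of 2.78 to 42.9).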

Additional observations from a re-analysis of the deposited data

Results flagged for a closer look

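Within arms of 5 or 6 libraries, 7 of the 72 arms examined held 1 library far from the others by Dixon's criterion. Chance meets that criterion in about 1 of 20 independent arms. The oxygen and SPP1 arms of a mode share their libraries, so 1 library can count more than once. Medium hypoxia without SPP1 replicate 1 was highest for KLF3 among the hypoxia libraries of medium (100.2 CPM, next 38.6) and among its libraries without SPP1 (100.2 CPM, next 35.7), and for BTG1 among the hypoxia libraries of medium (13430 CPM, next 8113). Medium normoxia without SPP1 replicate 3 was highest for KLF13 among the normoxia libraries of medium (124.2 CPM, next 56.3). Cells hypoxia without SPP1 replicate 2, which had ENSG00000263934 at 440 CPM, was lowest for BTG2 among the hypoxia libraries of cells (37.5 CPM, next 140.8) and among its libraries without SPP1 (37.5 CPM, next 137.0). Cells hypoxia with SPP1 replicate 3 was highest for TOB1 among the cells libraries with SPP1 (76.2 CPM, next 53.4).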

How the results depend on the processing

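Over the log2 differences of the 6 members in the 12 comparisons, 427 of 459 alternative values of called differences kept direction and call, 32 lost the call and 0 changed sign. Of 1125 alternative values of uncalled differences, 1024 stayed so, 20 gained a call and 81 changed sign. The number of members called from naive to washed, 3, was 5 with RLE scaling and 5 with DESeq2, and 3 to 5 on leaving out single libraries. Between washed and cells, 2 became 1 with only the groups compared, 1 without the 4 libraries lowest on the second component, 1 without the 5 (chosen after seeing the data), and 1 to 3 without single libraries. On leaving out single libraries the counts were 2 to 5 from naive to medium, 2 to 4 from naive to cells and 0 to 1 for SPP1 in washed, where BTG1 passed without washed normoxia with SPP1 replicate 3 (-0.80, adjusted p = 0.0447). The share of all IDs called in the alternative fits is not given here, so these member counts were not set against a general change in calls. Signs changed among uncalled differences. Without the 4 and without the 5 libraries, respectively, these were BTG1 from medium to washed (0.066 and 0.131), hypoxia in cells for BTG2 (0.102 in both) and TOB1 (0.022 in both), hypoxia in washed for BTG1 (-0.165 and -0.039) and TOB1 (-0.325 and -0.092), SPP1 in cells for KLF3 (-0.091 and -0.092) and BTG2 (-0.133 and -0.135), and SPP1 in washed for KLF3 (0.294 and 0.165), KLF6 (-0.032 and -0.149), KLF13 (0.205 and 0.128), BTG2 (0.229 and 0.052) and TOB1 (0.254 and 0.022). Without the 2 medium libraries that stood apart they were KLF13 (0.297) and TOB1 (0.023) from medium to cells, KLF3 (-0.163), KLF13 (0.067) and TOB1 (0.247) for hypoxia in medium, and KLF13 (0.054), BTG2 (0.037) and TOB1 (0.101) for SPP1 in medium. KLF6 for hypoxia in medium, 0.009, was -0.022 with the replicate block and -0.004 with only the groups compared. Without single libraries KLF3 ran from -0.554 to 0.059 from naive to cells, KLF6 from -1.315 to 0.006 from naive to washed, and KLF13 from -0.027 to 0.431 from medium to washed and from -0.23 to 0.208 from medium to cells. For hypoxia in medium KLF3 ran from -0.21 to 0.304, KLF6 from -0.113 to 0.162, KLF13 from -0.504 to 0.295, BTG2 from -0.025 to 0.199 and TOB1 from -0.338 to 0.362. For hypoxia in cells BTG2 ran from -0.299 to 0.083 and TOB1 from -0.212 to 0.001, and in washed KLF3 ran from -0.042 to 0.401, BTG1 from -0.132 to 0.262 and TOB1 from -0.201 to 0.769. For SPP1, BTG1 in medium ran from -0.359 to 0.149, KLF3 in cells from -0.095 to 0.191, BTG2 in cells from -0.14 to 0.245, TOB1 in cells from -0.133 to 0.107 and KLF6 in washed from -0.132 to 0.306. The cause of these changes was not tested. With the replicate block, 5 members were called from naive to medium, 4 to cells and 4 to washed (BTG1 added, log2 difference -0.767, adjusted p = 0.046), and no other call changed. By the median, same-numbered libraries of different groups deviated together little more than differently numbered ones (correlation 0.00679 over 210 pairs, against -0.00124). Single same-numbered pairs ran from -0.477 to 0.53, with 36 over 0.1, and 17 of 37 libraries were nearest to their own number. Whether same-numbered libraries share an origin was not tested, and the numbers were not taken as pairs. With 2 naive libraries and a median of 1063211 counts per library, small differences from naive could not be resolved.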
